A study of Homo sapiens with 21 samples.

Results

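The genes described here encode MYC and 7 of its partners and competitors in the MAX network of DNA-binding proteins: MAX, MXD1, MXD4, MXI1, MNT, MLX and MGA. They were listed by name and not picked by a cutoff on their measured values, but earlier results of these data were known when they were chosen. They are 8 of the 26475 genes in the count table. All 8 had enough reads to be among the 15062 genes tested. The mRNA levels come from poly-A selected RNA of SK-MEL-147, an established human melanoma cell line, read by RNA sequencing. There were 21 libraries in 7 groups of 3. The reference group was untreated cells, and each other group received a single compound, with no second treatment or genetic change named in any group. JQ-1 binds the bromodomains of the BET proteins, which hold transcription complexes at acetylated chromatin, and TP-472 binds those of BRD9 and BRD7. The enzyme PRMT5, which methylates arginine, is the target of GSK-591, and the type I arginine methyltransferases are those of MS023. PADI4, which turns arginine into citrulline, is inhibited by GSK-484, and the histone lysine methyltransferases EHMT1 and EHMT2 by UNC0642. The sources used here give no dose, exposure time or solvent control. A single cell line limits the results to that line. Nothing says that replicates were grown separately, so the p-values reflect only how far these samples spread, and that spread may be technical.

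MYC activates transcription of genes for growth, ribosome production and division, and it binds DNA only as a pair with MAX. MXD1, MXD4, MXI1 and MNT compete with MYC for MAX and, as pairs with it, recruit the SIN3 and HDAC corepressors to the same E-box sites. MGA also pairs with MAX and belongs to a Polycomb repressor complex, while MLX forms the related arm of the network with MLXIP (MondoA), a sensor of glucose-derived metabolites. MYC is known as a gene whose transcription depends on BET proteins, and JQ-1 lowers its mRNA in many leukaemia and myeloma lines.

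Summed expected counts per library ran from 20978182 to 78776788, and the fewest counts for any of the 8 genes in any library were 318 (MXD1). The common coefficient of variation between replicates was 5.09%. Levels are in CPM, counts relative to the library total over the genes tested, with that total adjusted by its TMM scaling factor. SOX10, at 349 to 603 CPM, and MITF, at 9.24 to 19.0 CPM, were present in every library. The other 6 of the 8 melanocyte lineage markers stayed under 1 CPM throughout. With JQ-1 the summed level of the lineage markers was 610 to 622 CPM, against 363 to 385 CPM untreated. All 6 markers of neural crest-like or mesenchymal melanoma were present, with a sum of 15749 to 15938 CPM with JQ-1 and 10162 to 10820 CPM untreated. Of 14 markers of other cell types, 12 were under 1 CPM in every library, and the exceptions were LUM at 0.88 to 5.94 and EPCAM at up to 1.2 CPM. Their sum was 1.52 to 2.35 CPM with JQ-1 and 5.62 to 7.76 CPM untreated, and the part of these shifts in the JQ-1 results was not tested. In the untreated libraries the log2 level fell by 0.416 to 0.502 for each 10 points of transcript GC content, and in the 18 treated libraries by 0.182 to 0.354, so every treated library differed from every untreated one in this respect. Fold changes are therefore given as measured and, where it matters, with this GC trend removed from each library. Bulk libraries give relative levels, and fewer cells and less RNA per cell cannot be told apart.

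The site that these proteins share is the E-box CACGTG, which reads the same on both strands. It was searched in the 250 bases before each RefSeq start (build GRCh38.p14) for the 7 genes other than MYC. MLX, MNT and MXD4 held 1 copy each, that is 3 of 7 genes, against 7.7% of the 27305 genes with such a window (6.3% of 35116 windows). The copy began 50 bases before the start of MLX, 193 before that of MNT and 238 before that of MXD4. The windows are shown because MXD4 and MLX are members that changed with JQ-1 and MNT one that did not, with the E-box in capitals: MLX at chr17:42566850-42567099 on the plus strand, MNT at chr17:2401061-2401310 on the minus strand and MXD4 at chr4:2262110-2262359 on the minus strand.
MLX: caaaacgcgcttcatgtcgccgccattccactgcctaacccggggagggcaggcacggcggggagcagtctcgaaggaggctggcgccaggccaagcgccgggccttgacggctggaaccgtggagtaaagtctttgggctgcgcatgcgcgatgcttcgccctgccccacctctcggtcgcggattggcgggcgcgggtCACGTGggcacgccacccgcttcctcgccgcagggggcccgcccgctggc
MNT: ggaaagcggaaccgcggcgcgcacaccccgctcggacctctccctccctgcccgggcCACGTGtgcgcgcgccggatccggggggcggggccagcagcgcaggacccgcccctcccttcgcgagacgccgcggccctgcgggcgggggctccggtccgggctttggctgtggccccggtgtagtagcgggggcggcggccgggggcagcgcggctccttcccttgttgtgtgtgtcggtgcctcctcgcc
MXD4: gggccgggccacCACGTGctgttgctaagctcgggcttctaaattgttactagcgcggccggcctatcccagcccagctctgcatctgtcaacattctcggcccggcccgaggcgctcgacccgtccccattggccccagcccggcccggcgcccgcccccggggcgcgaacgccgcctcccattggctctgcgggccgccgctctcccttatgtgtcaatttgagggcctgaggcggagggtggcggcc
No copy of these letters lay in the windows of MAX, MXD1, MXI1 and MGA. A match is a description of sequence and not a measured binding site.

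The level per kb of merged exons orders the genes in untreated cells. On this scale MLX was highest at 16.7 ± 1.28 CPM per kb (SD, n = 3), followed by MYC at 13 ± 0.605, MXI1 at 11.7 ± 0.735 and MAX at 7.59 ± 0.277. MXD4 stood at 5.43 ± 0.208, MXD1 at 2.82 ± 0.220, MNT at 2.1 ± 0.177 and MGA, which has the longest transcript, at 1.38 ± 0.132 CPM per kb. The obligate partner MAX was thus below MYC and MXI1 in mRNA level per kb of merged exons. With the mean length of the annotated transcripts instead, MXI1 and MAX moved above MYC and MNT above MXD1, so the middle of this order depends on the transcript model. MYC lies on chromosome 8 (127735434 to 127742951, plus strand), MAX on chromosome 14 (65006101 to 65102695, minus) and MGA on chromosome 15 (41621224 to 41769940, plus). MXD1 lies on chromosome 2 (69915109 to 69942945, plus), MXI1 on chromosome 10 (110207605 to 110287365, plus) and MXD4 on chromosome 4 (2247432 to 2262109, minus). MLX (42567100 to 42573203, plus) and MNT (2384073 to 2401060, minus) are both on chromosome 17. MYC exons overlap those of no other gene. MLX exons overlap those of PSMC3IP on the other strand, as do those of MAX (AL139022.1), MGA (AC073657.1), MNT (AC006435.1) and MXI1 (AL360182.2) with the genes in brackets. On the same strand, MXD1 exons overlap those of SNRNP27 and MXD4 exons those of MIR4800. The sources used here do not say whether the libraries kept strand, so reads of exons on opposite strands cannot be told apart. Strand would not separate the same-strand overlaps.

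MYC mRNA was about 3-fold higher with JQ-1, the opposite direction from the BET dependence named above. It stood at 37.0, 40.1 and 40.2 CPM in the untreated libraries and at 124, 125 and 123 CPM in the JQ-1 libraries. All 3 JQ-1 libraries lay far above the other 18, which ran from 37.0 to 45.3 CPM. The ratio of the means was 3.17, a log2 fold change of 1.66 (SE 0.052, adjusted p = 3.17e-18, edgeR quasi-likelihood test with Benjamini-Hochberg adjustment over all genes tested). With the GC trend removed the log2 fold change was 1.56 (SE 0.046). For comparison, JQ-1 moved many genes: 35.7% of all genes tested were called higher and 37.6% lower, and 10% of genes changed by more than 1.56 on the log2 scale in either direction. Of the 8 network genes, 3 were called higher and 1 lower, near this background for genes called higher and below it for genes called lower, with a median log2 fold change of 0.15 against -0.01 over all genes tested.

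**Figure D1:**
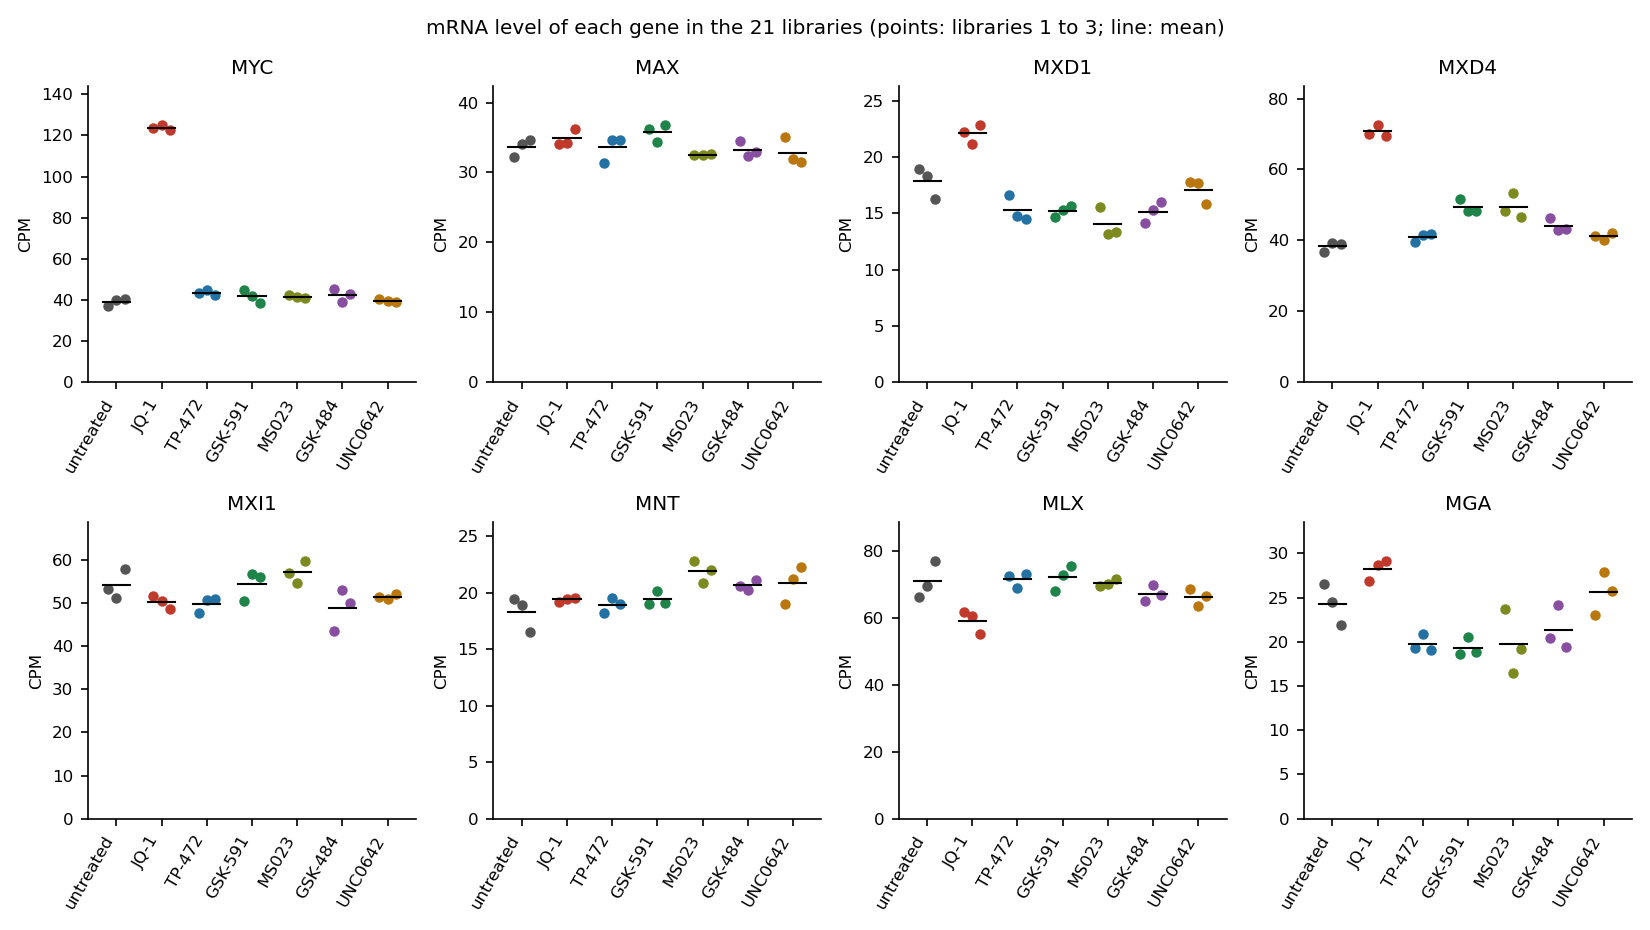
CPM of the 8 genes (1 panel each, y axis from 0) in the 3 libraries of each of the 7 groups; points are libraries and lines group means. MYC and MXD4 stand apart with JQ-1, at 123 to 125 and 69.5 to 72.6 CPM, while MAX stays between 31.4 and 36.8 CPM in all 21 libraries.

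Among the MAX-binding repressors, MXD4 rose most with JQ-1, in the same direction as MYC. MXD4 mRNA was at 36.7, 39.3 and 39.1 CPM untreated and at 70.0, 72.6 and 69.5 CPM with JQ-1. The JQ-1 libraries again lay above all others, since MXD4 did not exceed 53.4 CPM elsewhere. Its log2 fold change was 0.88 (SE 0.050, edgeR adjusted p = 1.77e-13), and 0.73 with the GC trend removed. MXD1, which is induced in differentiating cells, stood at 19.0, 18.4 and 16.3 CPM untreated and at 22.3, 21.2 and 22.9 CPM with JQ-1. Those 2 groups did not overlap, and the log2 fold change was 0.30 (SE 0.074, edgeR adjusted p = 0.000799). This call ended under total-count scaling (0.16, adjusted p = 0.0628), a setting that moved the median of all genes to -0.15, so that MXD1 kept its distance from that median. Against the mean of the other 5 treated groups in place of untreated cells, MXD1 was higher by 0.53 (adjusted p = 1.21e-08). MXI1 and MNT, the other repressors of this kind, did not pass the test. MXI1 was at 51.2 to 57.8 CPM untreated and 48.6 to 51.6 CPM with JQ-1, a log2 difference of -0.11 (95% interval -0.22 to 0.01), and under total-count scaling -0.25 (adjusted p = 0.00171). MNT was at 16.5 to 19.4 CPM untreated and 19.2 to 19.5 CPM with JQ-1, a log2 difference of 0.08 (95% interval -0.04 to 0.21) that turned to -0.06 with the GC trend removed.

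The shared partner MAX did not pass the test with JQ-1. Its level was 32.3, 34.0 and 34.6 CPM untreated and 34.1, 34.2 and 36.3 CPM with JQ-1, and these ranges overlap. The log2 difference was 0.05 with a 95% interval from -0.05 to 0.15, an interval that does not reach the change seen for MYC. MLX fell with JQ-1, from 66.4, 69.5 and 77.0 CPM to 61.9, 60.5 and 55.1 CPM. Every JQ-1 library was below every other library for this gene, and the log2 fold change was -0.26 (SE 0.054, edgeR adjusted p = 0.000161). MGA was at 26.5, 24.6 and 21.9 CPM untreated and 26.9, 28.7 and 29.1 CPM with JQ-1. The JQ-1 libraries were the highest 3 against untreated cells but by a small margin over untreated replicate 1, and the log2 difference of 0.21 (SE 0.101) missed the threshold (adjusted p = 0.0617). Without untreated replicate 1 it was 0.29 (adjusted p = 0.0255), and with the GC trend removed 0.32 (adjusted p = 0.00499). DESeq2 also called it (adjusted p = 0.0479), and so did edgeR with the 2 groups fitted alone (0.22, 0.0186) and against the mean of the other 5 treated groups (0.42, 3.32e-05). With the GC trend removed, where 73.8% of all genes were called in either direction, 5 of the 8 network genes were called with JQ-1.

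The balance between MYC and 4 of its competitors for MAX was described as a ratio. This was MYC over the summed MXD1, MXD4, MXI1 and MNT, each in CPM per kb of merged exons. MXD3, a further MAX-binding repressor, and MGA, which also pairs with MAX, were not in this sum. The ratio was 0.561, 0.615 and 0.594 in the untreated libraries and 1.54, 1.56 and 1.56 in the JQ-1 libraries. MYC made up 37.1% of this sum of 5 genes in untreated cells and 60.8% with JQ-1, although MXD4 and MXD1 were higher as well. Means in the other groups were 0.574 ± 0.00885 (MS023), 0.596 ± 0.0568 (GSK-591), 0.598 ± 0.0141 (UNC0642), 0.655 ± 0.0746 (GSK-484) and 0.685 ± 0.0202 (TP-472). The JQ-1 libraries stood well above the rest. Those with TP-472, at 0.661 to 0.697, also lay above the untreated range of 0.561 to 0.615, by a much smaller margin. The remaining groups overlapped the untreated range. The ratio was not corrected for the GC trend. The size of the ratio depends on the transcript length used, and it is an mRNA ratio that carries no test.

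**Figure D2:**
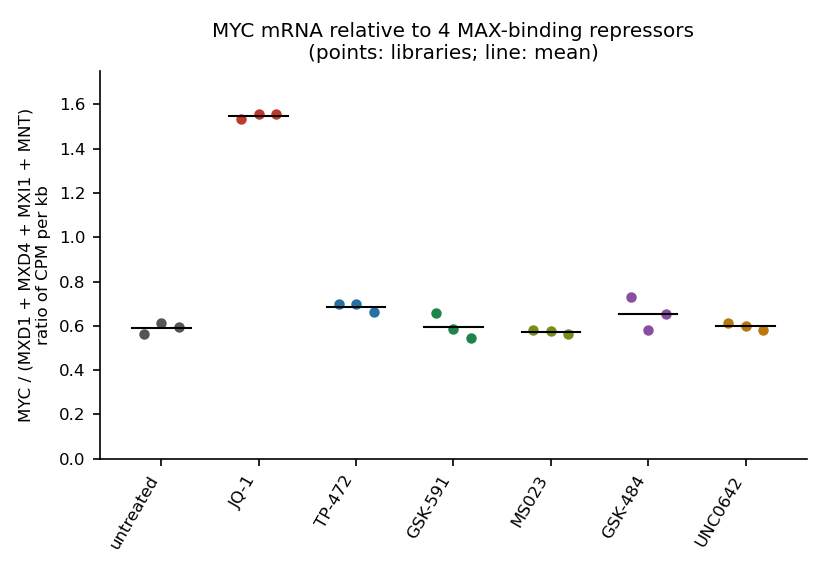
Ratio of MYC to the summed MXD1, MXD4, MXI1 and MNT (y axis, from 0, each gene in CPM per kb of merged exons) for the 7 groups; points are libraries and lines means. The 3 JQ-1 libraries lie at 1.54 to 1.56 and all 18 others at 0.546 to 0.732.

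Outside the 8 genes, the MYC paralogs added little mRNA. MYCN was close to absent, with at most 7 counts in a library, and MYCL was at 1.44 CPM untreated and 2.78 CPM with JQ-1 (log2 fold change 0.95, SE 0.163). MXD3, a further MAX-binding repressor, was at 19.8 CPM untreated and 25.1 CPM with JQ-1 (0.34, SE 0.081), a call that ended with the GC trend removed (0.13, edgeR adjusted p = 0.0765). All 3 tested genes of this group of 5 were thus called higher with JQ-1, against 35.7% of all genes, since MYCN and MLXIPL, the latter at no more than 4 counts, were too low to test.

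On the MLX arm, the partner and the best-known target genes rose with JQ-1 while MLX itself fell. MLXIP, which encodes MondoA, was at 72.4, 73.9 and 70.1 CPM untreated and at 123, 121 and 121 CPM with JQ-1, with no overlap (0.75, SE 0.041, edgeR adjusted p = 9.75e-14). TXNIP, an inhibitor of glucose uptake and of thioredoxin, was at 180, 181 and 176 CPM untreated and at 1478, 1483 and 1466 CPM with JQ-1. Its log2 fold change was 3.04 (SE 0.037, edgeR adjusted p = 3.71e-25), larger than that of any of the 8 network genes. ARRDC4, an arrestin-domain relative of TXNIP, was at 8.85, 8.70 and 8.70 CPM untreated and at 25.8, 23.9 and 26.8 CPM with JQ-1 (1.54, SE 0.078). PFKFB3, a glycolytic regulator, rose by 0.27 (SE 0.042), and KLF10 fell by 0.13 (SE 0.043), a call that ended with the GC trend removed (-0.09, adjusted p = 0.0607). PKLR, the fifth gene of the list, was too low to test.

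The upstream windows of TXNIP and ARRDC4 are shown because these genes moved most on this arm and MondoA:MLX pairs are known to bind E-box-like hexamers in tandem. A pair written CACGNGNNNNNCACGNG, searched on both strands, was found in 16 of 35116 windows (0.05%), TXNIP among them, and in none of the 12 windows of the network genes. This pattern has the form of the TXNIP site itself, so its match there describes sequence and is no test. The pair lay in 1 of 7 windows of the MLX target genes, and the other TXNIP window held none. A CACGTG lay in windows of ARRDC4, PFKFB3 and PKLR, 3 of the 4 target genes with windows. In the TXNIP window (GRCh38.p14, chr1:145996580-145996829, minus strand) the capitals mark this pair, which began 88 bases before the start. In the ARRDC4 window (chr15:97960453-97960702, plus strand) the capitals mark a CACGTG that began 210 bases before the start.
TXNIP: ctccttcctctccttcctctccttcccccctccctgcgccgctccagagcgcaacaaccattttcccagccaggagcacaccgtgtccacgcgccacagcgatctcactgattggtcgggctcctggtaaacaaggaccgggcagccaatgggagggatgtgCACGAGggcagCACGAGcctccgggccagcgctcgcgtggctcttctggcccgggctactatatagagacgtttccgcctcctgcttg
ARRDC4: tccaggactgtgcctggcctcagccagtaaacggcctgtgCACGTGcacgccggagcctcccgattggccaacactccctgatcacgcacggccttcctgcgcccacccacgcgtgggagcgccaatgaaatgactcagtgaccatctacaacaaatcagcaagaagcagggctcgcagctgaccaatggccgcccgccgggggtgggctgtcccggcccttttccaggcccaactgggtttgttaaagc
With the remaining compounds TXNIP stayed between 173 and 224 CPM and ARRDC4 between 8.13 and 11.3 CPM. The highest group mean among them for TXNIP was with MS023, at 215 ± 8.34 CPM (SD, n = 3), a log2 fold change of 0.27 (SE 0.035, edgeR adjusted p = 4.19e-06). TXNIP was also called higher with GSK-591 (0.11, edgeR adjusted p = 0.0160), GSK-484 (0.12, 0.0185) and UNC0642 (0.12, 0.0220), but not with TP-472 (-0.021). With the GC trend removed these values were 0.20, 0.19 and 0.17, still called, and 0.066 with TP-472, not called. Against the mean of the other treated groups without JQ-1, GC trend removed, GSK-591 (-0.0024), GSK-484 (-0.013) and UNC0642 (-0.042) were not called.

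**Figure D3:**
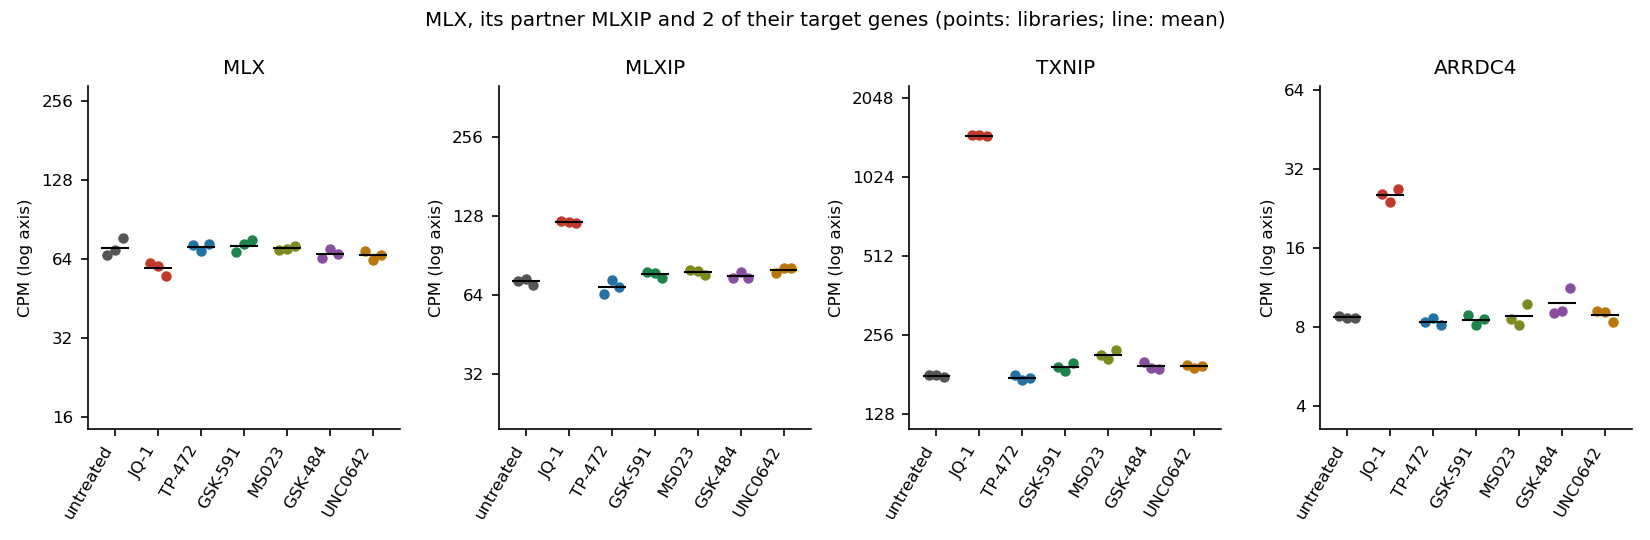
CPM (log axis, each panel spanning the same fold range) of MLX, MLXIP, TXNIP and ARRDC4 in the 7 groups; points are libraries and lines means. With JQ-1, MLX is lower and the other 3 genes are higher than in any other group, TXNIP at 1466 to 1483 CPM.

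The bromodomain compounds JQ-1 and TP-472 were also compared directly, as a contrast of the same fit over all libraries. MYC was at 43.2, 44.9 and 42.5 CPM with TP-472, so that it was lower than with JQ-1 by 1.51 on the log2 scale (log2 fold change -1.51, SE 0.051, edgeR adjusted p = 1.78e-17). MXD4 (-0.79, SE 0.049), MXD1 (-0.53, SE 0.075) and MGA (-0.52, SE 0.103) were lower with TP-472 as well, and MLX was higher (0.27, SE 0.054). These were 1 gene called higher and 4 called lower of 8, against 37.5% and 34.8% of all genes tested. MAX, MXI1 and MNT were not called, with 95% intervals of -0.15 to 0.05, -0.13 to 0.11 and -0.16 to 0.09. TXNIP differed by -3.07 (SE 0.037) and MLXIP by -0.83 (SE 0.041) in this contrast. Without doses or times for either compound, the comparison is of these libraries as treated.

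Against untreated cells, TP-472 gave small differences in the network. MYC was higher by 0.16 (SE 0.053, edgeR adjusted p = 0.0263), in 3 of 3 libraries. MXD1, at 16.6, 14.8 and 14.5 CPM, was lower by 0.23 (log2 fold change -0.23, SE 0.075), and MGA, at 19.2, 20.9 and 19.0 CPM, by 0.30 (-0.30, SE 0.102). That was 1 gene called higher and 2 lower of 8, against 17.3% and 14.5% of all genes tested. With the GC trend removed, where 12.1% of all genes were called in either direction, 0 of the 8 were called by edgeR (1, MXD4, at an unadjusted p under 0.05; DESeq2, with no GC correction, called the same 3 as edgeR without it), and the values were 0.03 for MYC, -0.14 for MXD1 and -0.18 for MGA. A further reference in place of untreated cells was the mean of the other 4 treated groups with JQ-1 left out, called the treated reference from here on. Against it MYC was at 0.075 (adjusted p = 0.279), MXD1 at -0.0062 (0.967) and MGA at -0.11 (0.435), and these calls ended. MXD4, by contrast, turned from 0.10 to -0.16 and was called lower (adjusted p = 0.0116, and 0.000262 with the GC trend removed as well). That reference includes GSK-591 and MS023, where MXD4 was at 49.5 and 49.4 CPM. With TP-472 it was at 41.0 CPM, above its untreated mean of 38.3 CPM. Over all 15062 genes tested, 1296 were called with TP-472 against this reference, and 1700 with the GC trend removed as well. The MYC call also ended under total-count scaling (0.15, adjusted p = 0.0604), with no filter on low counts (0.13, 0.0734) and with the 2 groups fitted alone (0.14, 0.0565), and without untreated replicate 1 (0.12, adjusted p = 0.150) or TP-472 replicate 2 (0.13, adjusted p = 0.114). That of MXD1 ended without untreated replicate 1 (-0.18, adjusted p = 0.135), untreated replicate 2 (-0.21, 0.0607), TP-472 replicate 2 (-0.20, 0.0900) or TP-472 replicate 3 (-0.20, 0.0967). That of MGA ended without untreated replicate 1 (-0.23, adjusted p = 0.164), untreated replicate 2 (-0.30, 0.0592), TP-472 replicate 1 (-0.28, 0.0752) or TP-472 replicate 3 (-0.28, 0.0918).

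**Figure D4:**
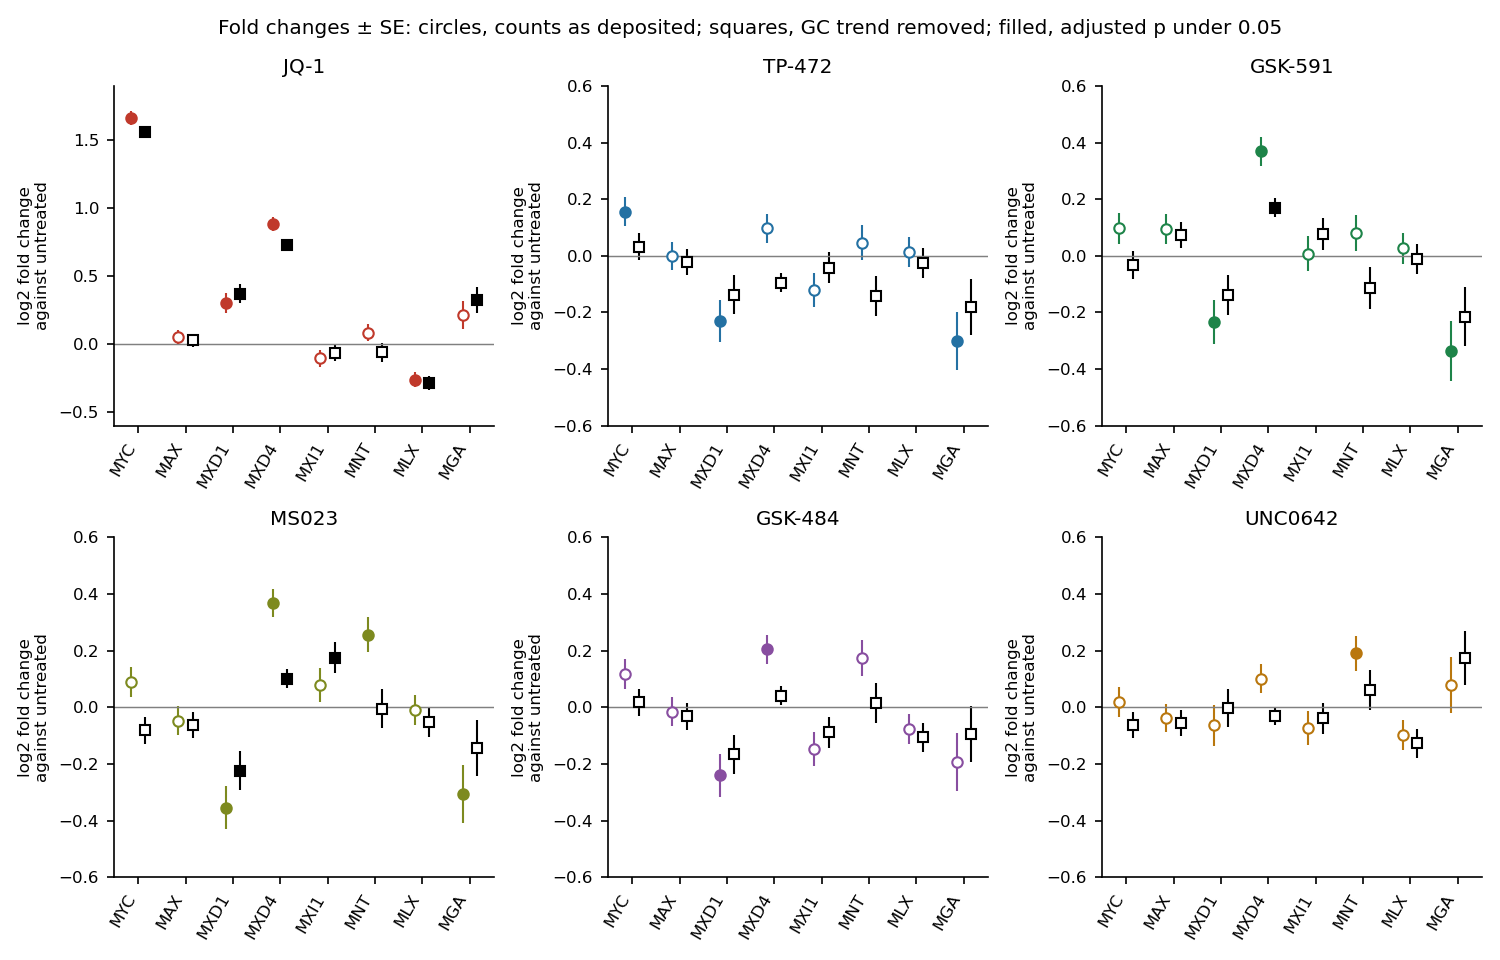
Log2 fold change against untreated cells (y axis) of the 8 genes with each compound, ± SE; circles are from counts as deposited, squares with the GC trend removed, and filled symbols have an adjusted p under 0.05. The JQ-1 panel has a wider axis, with MYC at 1.66 and 1.56; in the other panels the largest circle is MXD4, at 0.37 with GSK-591 and with MS023.

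MXD4 was higher with both arginine methyltransferase inhibitors. It stood at 51.7, 48.4 and 48.3 CPM with GSK-591 and at 48.2, 53.4 and 46.6 CPM with MS023, and both groups lay above the untreated range of 36.7 to 39.3 CPM. The log2 fold change was 0.37 with each compound (SE 0.051 and 0.050, edgeR adjusted p = 2.81e-05 and 6.11e-06). With the GC trend removed it was 0.17 with GSK-591 (adjusted p = 0.00222) and 0.10 with MS023 (adjusted p = 0.0400), so the call held and the size fell. Against the treated reference, which leaves JQ-1 out, it was 0.18 with each compound (adjusted p = 0.00845 and 0.00298). MXD4 has the highest transcript GC content of the 8 genes, 61.0%, and MGA the lowest, 42.7%.

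GSK-591 also lowered MXD1 (14.7, 15.3 and 15.6 CPM) by 0.23 and MGA (18.6, 20.5 and 18.9 CPM) by 0.34 on the log2 scale (-0.23, SE 0.077, and -0.34, SE 0.106). In all, 1 of 8 genes was called higher and 2 lower, against 18.1% and 14.8% of all genes tested, and with the GC trend removed MXD4 alone was called, against 13.6%. The MXD1 call ended without untreated replicate 1 (-0.18, adjusted p = 0.12), untreated replicate 2 (-0.22, 0.0594) or GSK-591 replicate 1 (-0.21, 0.0939). That of MGA ended without untreated replicate 1 (-0.27, adjusted p = 0.106), GSK-591 replicate 1 (-0.31, 0.0690) or GSK-591 replicate 3 (-0.32, 0.0583). Against the treated reference MXD1 was at -0.012 (adjusted p = 0.939) and MGA at -0.16 (0.291). MYC, at 44.9, 41.9 and 38.7 CPM, was not called (0.10, adjusted p = 0.178), but was without GSK-591 replicate 3 (0.16, adjusted p = 0.0438).

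With MS023, 2 of 8 genes were called higher and 2 lower, against 22% and 20.6% of all genes tested. Besides MXD4, MNT was higher, at 22.8, 20.9 and 22 CPM against 19.4, 18.9 and 16.5 CPM untreated (0.26, SE 0.062, edgeR adjusted p = 0.00195). MXD1, at 15.6, 13.2 and 13.3 CPM, was lower (-0.35, SE 0.075, adjusted p = 0.000655), and so was MGA, at 23.7, 16.5 and 19.2 CPM (-0.31, SE 0.102, adjusted p = 0.0195), whose libraries overlapped the untreated ones. With the GC trend removed 17% of all genes were called, MXD1 stayed called at -0.22, MNT was at 0.00 and not called, and MXI1 was called at 0.17 (adjusted p = 0.0293). Against the treated reference MXI1 was called as well (0.16, adjusted p = 0.0199), and the calls of MXD1 (-0.16, adjusted p = 0.0668), MNT (0.13, 0.0569) and MGA (-0.12, 0.352) ended. The MGA call also ended with the GC trend removed (-0.145, 0.345), with the 2 groups fitted alone (-0.30, 0.0644) and without untreated replicate 1 (-0.23, adjusted p = 0.122), MS023 replicate 2 (-0.18, 0.184) or MS023 replicate 3 (-0.29, 0.0577). Compared directly, GSK-591 and MS023 differed in 0 of the 8 genes by the edgeR test, against 5.43% of all genes called higher and 4.46% lower. MAX and MNT, chosen after their values were seen, were the 2 with an unadjusted p under 0.05 (log2 differences 0.14 and -0.18), and DESeq2 called 0. The 95% interval of the difference was -0.10 to 0.11 for MYC and -0.10 to 0.10 for MXD4.

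The remaining compounds gave few calls among the 8 genes. With GSK-484, MXD4 was at 46.4, 42.8 and 43.2 CPM (0.20, SE 0.050, edgeR adjusted p = 0.00860) and MXD1 at 14.2, 15.3 and 16.0 CPM (-0.24, SE 0.075, adjusted p = 0.0291). This was 1 gene of 8 called in each direction, against 11.4% higher and 7.66% lower of all genes tested, and with the GC trend removed edgeR called 0, against 1.03% (1, MXD1, at an unadjusted p under 0.05; DESeq2 without that correction called 2). With the 2 groups fitted alone the calls of MXD4 (0.19, adjusted p = 0.116) and MXD1 (-0.25, 0.12) ended, and against the treated reference MXD1 was at -0.020 (0.927) and MXD4 turned to -0.029. The MXD4 call ended without untreated replicate 1 (0.17, adjusted p = 0.0618) or GSK-484 replicate 1 (0.17, 0.0534). That of MXD1 ended without untreated replicate 1 (-0.19, adjusted p = 0.162), untreated replicate 2 (-0.22, 0.0687), GSK-484 replicate 1 (-0.195, 0.128) or GSK-484 replicate 2 (-0.25, 0.0525). Without GSK-484 replicate 2, MYC (0.17, adjusted p = 0.0308) and MXI1 (-0.21, 0.0284) were called. With UNC0642, MNT was at 19.0, 21.2 and 22.3 CPM and was called higher (0.19, SE 0.061, adjusted p = 0.0361), although its libraries overlapped the untreated ones. It was the single call among the 8, against 8.71% of all genes higher and 7.54% lower, and with the GC trend removed edgeR called 0, against 2.93% (1, MLX, at an unadjusted p under 0.05; DESeq2 without that correction called 1). The MNT call also ended under total-count scaling (0.15, adjusted p = 0.0824), with no filter on low counts (0.18, 0.0686), with the 2 groups fitted alone (0.18, 0.145) and against the treated reference (0.051, 0.451). Against that reference other genes were called with UNC0642: MGA at 0.36 (adjusted p = 0.00191), MXD1 at 0.20 (0.0137) and MXD4 at -0.16 (0.00548), and each was also called with the GC trend removed, at 0.33, 0.16 and -0.085. Over all 15062 genes tested, 4145 were called in that contrast, and 4045 with the GC trend removed. MXD4 was at 41.1 CPM with UNC0642 and 38.3 CPM untreated, while the reference includes GSK-591 and MS023, at 49.5 and 49.4 CPM. The call of MNT against untreated cells ended without untreated replicate 3 (0.13, adjusted p = 0.189), UNC0642 replicate 2 (0.18, 0.111) or UNC0642 replicate 3 (0.15, 0.178). MYC, at 40.4, 39.5 and 39.0 CPM with UNC0642, lay within its untreated range apart from the first library.

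The order of the 7 groups for MYC was JQ-1, TP-472, GSK-484, GSK-591, MS023, UNC0642 and untreated cells, by mean CPM from 124 down to 39.1. JQ-1 and TP-472 did not overlap, nor did MS023 and UNC0642, and the libraries of the other neighbours in this order overlapped. The genes whose 7 group means were most like those of MYC, by the root mean square difference of centred log2 levels over 21 libraries, were TUFT1 (0.047), ANXA2 (0.050), EPHX1 (0.052), CNNM4 (0.054) and TCTA (0.054). Each was higher with JQ-1 by 1.51 to 1.74 on this scale. Over the 6 groups without JQ-1 they were others, CETN2 (0.0088) and GOT1 (0.0097) among them. For MXD4 the most similar genes were MAP3K14 (0.037) and PYGB (0.050), for MLX they were RDH14 and HEBP2 (both 0.021), and for MGA they were PDZD8 (0.025) and AFF4 (0.033).

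None of the tested MYC neighbours on chromosome 8 rose with JQ-1 by as much as MYC. PVT1, the long noncoding RNA gene next to MYC, was at 7.59, 7.02 and 7.46 CPM untreated and 6.36, 7.61 and 6.46 CPM with JQ-1, which overlap (-0.11, not called; -0.26, adjusted p = 0.00153, against the mean of the other 5 treated groups with the GC trend removed). Of 5 tested genes in this list, 1 was called higher and 3 lower, against 35.7% and 37.6% of all genes. The gene called higher was FAM84B (0.15, SE 0.044), and the lower ones were NSMCE2 (-0.56, SE 0.066), TRIB1 (-0.19, SE 0.042) and CASC8, whose libraries were all under 1 CPM.

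Regulators of MYC mRNA and protein were called in both directions with JQ-1, as were all genes tested (35.7% higher and 37.6% lower). Of 7 genes for proteins that bind MYC mRNA or promoter DNA, 1 was called higher and 4 lower, with a median of -0.20. IGF2BP1, which protects MYC mRNA from decay, fell from 34.3 ± 3.44 to 8.04 ± 0.533 CPM (SD, n = 3), a log2 fold change of -2.09 (SE 0.082). ELAVL1 (-0.29, SE 0.038) and HNRNPK (-0.25, SE 0.034) fell, and FUBP1, an activator of MYC transcription, rose by 0.19 (SE 0.060). Of 15 genes for MYC protein turnover, 6 were called higher, near the share of all genes, and 8 lower. PPP2R5A, a phosphatase subunit that acts on MYC, rose from 12 to 29.5 CPM (1.29, SE 0.064), as did the ubiquitin ligase STUB1 (0.72, SE 0.058). The SUMO protease SENP1 fell from 41.9 to 12.8 CPM (-1.72, SE 0.053), KIAA1524, whose product CIP2A shields MYC from that phosphatase, by 0.91 (-0.91, SE 0.063), and AURKA, a kinase that stabilises MYC family proteins, by 0.88 (-0.88, SE 0.034). With TP-472, 4 of these 15 were called higher and 2 lower, against 17.3% and 14.5% of all genes, and 1 was called with the GC trend removed, against 12.1%. Among the lower ones was GSK3B, a kinase that marks MYC for degradation, at -0.28 (SE 0.045).

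Of 13 cofactors of MYC, 8 were called higher and 3 lower with JQ-1, against 35.7% and 37.6% of all genes, with a median of 0.18, and 6 and 4 with the GC trend removed. With TP-472 8 of 13 were called higher, against 17.3%, and 0 lower (edgeR; also 0 at an unadjusted p under 0.05 and with DESeq2), with a median of 0.15, and 5 were called higher with the GC trend removed. With JQ-1 the largest rises were BRD8, a subunit of the TIP60 complex (0.49, SE 0.039), ZBTB17, which encodes the MYC partner MIZ1 (0.42, SE 0.050), and the acetyltransferase EP300 (0.40, SE 0.103), while its relative CREBBP fell (-0.36, SE 0.075). Of 14 genes of the SIN3 and HDAC corepressor, which the MXD proteins recruit, 3 were called higher and 6 lower with JQ-1, where the shares of all genes were 35.7% and 37.6%. SAP30 (0.77, SE 0.080), the scaffold SIN3B (0.75, SE 0.054) and ING1 (0.60, SE 0.067) rose, and ARID4A (-0.68, SE 0.070), SUDS3 (-0.38, SE 0.032) and the deacetylase HDAC1 (-0.37, SE 0.039) fell. In the Polycomb complex that holds MGA, 4 of 10 genes were called higher and 5 lower, beside the same shares. PCGF6, the subunit that defines this complex, fell from 34.9 ± 3.05 to 16.0 ± 0.330 CPM (-1.13, SE 0.066), and RNF2 (-0.65, SE 0.087) and YAF2 (-0.57, SE 0.065) fell, while RING1 (0.69, SE 0.056) and RYBP (0.45, SE 0.059), the paralogs of RNF2 and YAF2, rose.

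With JQ-1, known MYC targets in ribosome biogenesis and in metabolism and growth were called in both directions. Of all genes, 35.7% were called higher and 37.6% lower. Of 24 ribosome biogenesis targets, 8 were called higher, near the share of all genes, and 6 lower, with a median log2 fold change of 0.00; with the GC trend removed 9 were called higher and 10 lower. BOP1 (0.99, SE 0.061), RRP9 (0.58, SE 0.057) and NOP56 (0.45, SE 0.035) rose, and the helicases DDX21 (-0.50, SE 0.041) and DDX18 (-0.26, SE 0.036) and the assembly factor RRS1 (-0.30, SE 0.044) fell. Of 25 metabolism and growth targets, 9 were called higher and 14 lower, with a median of -0.16. ODC1, the first enzyme of polyamine synthesis, rose from 170 ± 4.32 to 282 ± 3.02 CPM (0.73, SE 0.042), followed by AHCY (0.70, SE 0.041) and IMPDH2 (0.61, SE 0.037). The folate carrier SLC19A1 (-0.85, SE 0.070), SHMT1 (-0.64, SE 0.087) and the transferrin receptor TFRC (-0.64, SE 0.047) fell.

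Of 11 cell cycle targets tested, 8 were called lower, against 37.6% of all genes, and 0 higher, against 35.7%, with JQ-1 (edgeR; also 0 higher at an unadjusted p under 0.05 and with DESeq2), with a median of -0.49. E2F2 was at 3.20 ± 0.220 CPM untreated and 0.398 ± 0.146 CPM with JQ-1 (-2.98, SE 0.175), the phosphatase gene CDC25A at 21 ± 0.572 and 8.20 ± 0.418 CPM (-1.36, SE 0.059), and CDCA7 at 28.3 and 15.4 CPM (-0.88, SE 0.062). With TP-472, 4 of these 11 were called higher (17.3% of all genes; 3 with the GC trend removed), MCM5 among them (0.36, SE 0.049), and 0 lower by edgeR, at an unadjusted p under 0.05 or with DESeq2, and in the direct contrast 9 of 11 were higher with TP-472 than with JQ-1, against 37.5% of all genes. Among 9 tested genes that MYC is known to repress, 5 were called higher and 4 lower with JQ-1, against 35.7% and 37.6%. CLU, a secreted chaperone, rose from 20.9 ± 1.03 to 140 ± 3.18 CPM (2.75, SE 0.048), with ATF3 (1.14, SE 0.059) and THBS1 (1.06, SE 0.045). The cell cycle inhibitors CDKN1C (-0.80, SE 0.074), CDKN1B (-0.32, SE 0.036) and CDKN1A (-0.16, SE 0.040) fell. Against other genes, whose median log2 fold change with JQ-1 was -0.01, these lists are described by their counts and medians alone, and no test of the lists was made.

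**Figure D5:**
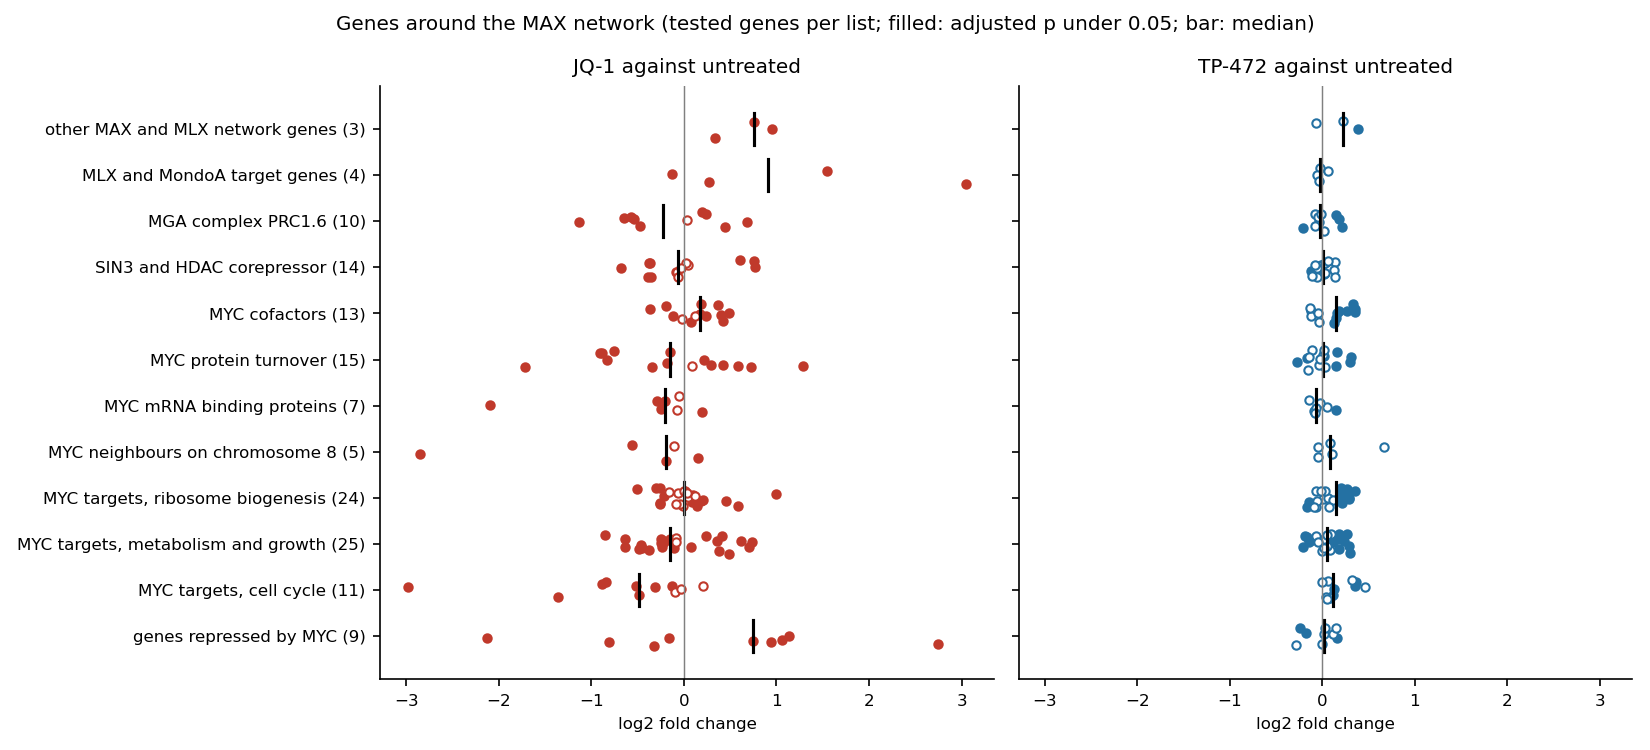
Log2 fold change (x axis) of every tested gene in 12 lists around the MAX network, with JQ-1 (left) and with TP-472 (right); filled points have an adjusted p under 0.05, and bars are medians. With JQ-1 the cell cycle targets lie at or below 0 apart from 1 gene, with a median of -0.49, and with TP-472 their median is 0.12.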

How the data were processed

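RNA of 21 SK-MEL-147 libraries, 3 in each of the 7 groups that the labels give, was sequenced, and the authors deposited 1 table of RSEM expected counts per gene, with no scaling across libraries. The submitters' processing notes name Bowtie2 2.1.0, RSEM 1.2.15 and the build hg38. The annotation, strand setting and read filters were not given in the sources used here. In the deposited table, expected counts were fractional for MAX, MXD4 and MLX in 13, 8 and 21 libraries, by at most 0.0303% of a count value. After rounding, edgeR 4.0.16 was used: genes passed filterByExpr (minimum count 10, total 15), TMM set the library scale, and a single fit held all libraries with group as its term. Each compound was compared with untreated cells, TP-472 with JQ-1, and GSK-591 with MS023, by the two-sided quasi-likelihood test with Benjamini-Hochberg adjustment over 15062 genes. A gene was called at an adjusted p under 0.05. The SE was derived from the log2 fold change and the F statistic of that test. Intervals are 95% by a normal approximation with this SE, and can be somewhat narrower than the test implies. Replicates of a group were not duplicates: chi-square over genes per degree of freedom was 3.43 to 56.5 over 21 pairs, and 0 pairs were identical.

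To remove the GC trend, log2 CPM (prior count 2) of each library was fitted by loess (span 0.3, 4 iterations) against the GC content of transcripts, known for 96.9% of genes tested. Gene lengths, GC and exon overlaps came from GENCODE 29, and positions and upstream windows from RefSeq on GRCh38.p14. The fit was tested on simulated data. Alternatives were DESeq2 1.42.0, RLE and total-count scaling, no filter, a replicate block, the GC correction, leaving out ribosomal RNA genes (4.99 to 10.6% of counts), a reference made of the mean of the other treated groups, without JQ-1 unless JQ-1 is the group compared (with and without the GC correction), the 2 groups alone, leaving out each library, and other transcript lengths. The length of the longest protein-coding transcript was added after seeing the data. The 8 genes and the 16 gene lists were chosen with earlier results of these data known. All 8 genes were named in every comparison. From the other lists, the text named up to 3 called genes with the largest rise and 3 with the largest fall with JQ-1, among those at 3 CPM or more in the higher group, up to 1 of each in other comparisons, and every gene of the small lists (other MAX and MLX network genes, MLX targets and chromosome 8 neighbours); some genes these rules pick are not reported here. Analyses used R 4.3.3, Python 3.11.15, numpy 2.4.6, pandas 2.3.3 and matplotlib 3.10.9.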

Additional observations from a re-analysis of the deposited data

How the results depend on the processing

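The rise of MYC with JQ-1 held under every alternative tried, at 1.52 to 1.68 on the log2 scale over 16 alternatives, with a highest adjusted p of 3.089e-11. Of 598 values of single genes under alternatives other than leaving out a library, 496 kept their direction and side of the threshold, 40 lost a call, 12 gained one and 50 changed sign; over 378 values with a library left out these numbers were 319, 28, 4 and 27. Of all sign changes, 8 involved a called value. Values below are log2 fold changes against untreated cells unless a pair of compounds is named, and the cause of these changes was not tested. With the GC trend removed, the number of the 8 genes called was 0 with TP-472, 1 with GSK-591, 0 with GSK-484, 0 with UNC0642. The sign turned for MNT (-0.061) with JQ-1, MXD4 (-0.095), MNT (-0.14), MLX (-0.026) with TP-472, MYC (-0.031), MNT (-0.11), MLX (-0.012) with GSK-591, MYC (-0.081), MNT (-0.0041) with MS023, MYC (-0.062), MXD4 (-0.031) with UNC0642, MXI1 (0.023) in TP-472 against JQ-1, MXD4 (0.070) in GSK-591 against MS023. With no filter on low counts, the number of the 8 genes called was 0 with UNC0642. The sign turned for MLX (-0.011) with TP-472, MXI1 (-0.015) with GSK-591, MYC (-0.0014) in GSK-591 against MS023. With the 2 groups fitted alone, the number of the 8 genes called was 0 with GSK-484, 0 with UNC0642. The sign turned for MLX (-0.00051) with TP-472, MXI1 (-0.0025) with GSK-591. Under total-count scaling, the number of the 8 genes called was 0 with UNC0642. The sign turned for MAX (-0.093), MNT (-0.058) with JQ-1, MXI1 (-0.057), MLX (-0.039) with GSK-591, MYC (-0.017) with UNC0642, MAX (0.082), MXI1 (0.12), MNT (0.096) in TP-472 against JQ-1, MYC (-0.0022) in GSK-591 against MS023. Against the mean of the other treated groups, JQ-1 left out (for JQ-1, the other 5), the number of the 8 genes called was 1 with TP-472, 1 with GSK-591, 2 with MS023, 0 with GSK-484, 3 with UNC0642. Over all 15062 genes tested, the numbers called were 1296, 1136, 2840, 19 and 4145 in the same order. The sign turned for MNT (-0.066) with JQ-1, MAX (0.00097), MXD4 (-0.16), MNT (-0.13) with TP-472, MNT (-0.086) with GSK-591, MYC (-0.0095), MLX (0.026) with MS023, MXD4 (-0.029), MGA (0.024) with GSK-484, MYC (-0.096), MXD1 (0.20), MXD4 (-0.16) with UNC0642. With that reference and the GC trend removed, the number of the 8 genes called was 1 with TP-472, 2 with MS023, 0 with GSK-484, 3 with UNC0642. Over all genes tested, the numbers called were 1700, 1973, 27 and 4045 in the same order. With GSK-591 in that setting, MAX was called higher (0.12, edgeR adjusted p = 0.0486) beside MXD4 (0.17, 0.000378), where 1570 of all genes tested were called. The sign turned for MNT (-0.024) with JQ-1, MXD4 (-0.17), MNT (-0.13) with TP-472, MYC (-0.0081), MNT (-0.096) with GSK-591, MYC (-0.071), MLX (0.015) with MS023, MYC (-0.047), MXD1 (0.16), MXD4 (-0.085) with UNC0642. Leaving out each library in turn gave 0 to 3 called genes with TP-472, 1 to 3 called genes with GSK-591, 0 to 3 called genes with GSK-484, 0 to 1 called genes with UNC0642. Values that changed sign ran from -0.028 to 0.047 for MAX with TP-472, -0.024 to 0.097 for MNT with TP-472, -0.032 to 0.072 for MLX with TP-472, -0.031 to 0.061 for MXI1 with GSK-591, -0.020 to 0.085 for MLX with GSK-591, -0.050 to 0.054 for MLX with MS023, -0.045 to 0.0038 for MAX with GSK-484, -0.011 to 0.044 for MYC with UNC0642, -0.038 to 0.015 for MXI1 in TP-472 against JQ-1, -0.048 to 0.066 for MYC in GSK-591 against MS023, -0.043 to 0.062 for MXD4 in GSK-591 against MS023, -0.0011 to 0.075 for MLX in GSK-591 against MS023, -0.16 to 0.11 for MGA in GSK-591 against MS023. The ratio of MYC to the summed MXD1, MXD4, MXI1 and MNT was also taken with other lengths. With the mean length of annotated transcripts it was 0.367 (untreated), 0.954 (JQ-1), 0.42 (TP-472), 0.366 (GSK-591), 0.35 (MS023), 0.398 (GSK-484), 0.366 (UNC0642). With the longest protein-coding transcript it was 0.518 (untreated), 1.32 (JQ-1), 0.594 (TP-472), 0.513 (GSK-591), 0.494 (MS023), 0.564 (GSK-484), 0.52 (UNC0642). Counting error was largest for MXD1, with 318 counts in its shallowest library. The GC trend separated every untreated library from every treated one, so it cannot be told apart from treatment, and single values near 0 have no stable sign.

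Replicate numbers did not pair the samples: over 63 pairs of libraries with the same number the correlation of deviations from group means ran from -0.16 to 0.137 (median -0.00243), 2 of them over 0.1, and 2 of 21 libraries correlated best with their own number. With a replicate block MXD4 was at 0.0016 between GSK-591 and MS023, a change of sign near 0.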
